A study of Homo sapiens with 27 samples.

Results

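Torin is an inhibitor of the kinase mTOR, and the question asked here was whether melanoma cells without TFE3 answer it differently from melanoma cells without TFEB. The quantity described is the Torin response difference, the log2 change from CTRL to Torin in TFE3 KO minus the same change in TFEB KO, gene by gene. It was computed from all 12 libraries that the labels give these groups, 12 of the 27 in the series. The cells are 501mel, an established human melanoma line with high MITF. TFE3 KO CTRL and TFEB KO CTRL cells were kept for 12 h without drug, and TFE3 KO Torin and TFEB KO Torin cells for 12 h in 250 nM Torin1, all in DMEM with foetal bovine serum per the labels and with 3 libraries in each group. Both knockouts were made with Cas9 and isolated as single clones, so a difference between genotypes and a difference between 2 clones cannot be told apart, and the 3 libraries of a group measure the spread within 1 clone. A positive difference means that a gene rose more, or fell less, in TFE3 KO than in TFEB KO.

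mTOR sits in 2 complexes. mTORC1 is active at the lysosome when nutrients are plentiful, promotes ribosome production, translation and cell cycle entry, and holds TFE3 and TFEB in the cytoplasm by phosphorylating them. mTORC2 activates AKT, which keeps the FOXO factors out of the nucleus. TFE3, TFEB and MITF belong to 1 family of basic helix-loop-helix leucine zipper proteins that bind the E-box CACGTG, and TFE3 and TFEB are best known for activating lysosomal and autophagy genes when mTORC1 is off. In a TFE3 KO cell the unedited factors of the family are TFEB and MITF, and in a TFEB KO cell they are TFE3 and MITF. Their protein levels were not unchanged by the study's blots. TFE3 KO cells had moderately less TFEB, especially in clone 2, and somewhat less MITF, and TFEB KO cells had modestly more TFE3. For RNA sequencing in standard culture the paper names clone 1 of TFE3 KO and clone 2 of TFEB KO.

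The sequences that define the clones are the guide target sites, shown with the PAM (the bases next to the target that Cas9 needs) in capitals. Each guide matched 1 site with a PAM on its chromosome in hg38. The TFE3 site lies at chrX:49038370-49038389 on the plus strand, in coding exon 4 of TFE3, and the TFEB site at chr6:41690831-41690850 on the minus strand, in coding exon 3 of TFEB, both by the main GENCODE transcript.
TFE3 guide site: ggtactgtttcacctgctgcCGG
TFEB guide site: agtacctgtccgagacctatGGG

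Libraries were made from the 3′ ends of polyadenylated RNA (QuantSeq Forward), so reads come from transcript ends and not from the edited exons, and transcript levels do not test whether an edit worked. TFE3 went from 7.59, 5.06 and 6.24 in TFE3 KO CTRL to 13.99, 9.13 and 9.15 under Torin, and from 31.4, 26.99 and 22.7 in TFEB KO CTRL to 18.3, 19 and 16.5 under Torin. It was lower in TFE3 KO in every library, and the groups did not overlap within either clone. Of TFE3, TFEB and MITF, TFE3 (chrX:49028726-49043410, hg38) was called, as it rose in TFE3 KO and fell in TFEB KO, a difference of 1.24 ± 0.26 (SE, adjusted p = 0.00144). TFEB (chr6:41683978-41736259) read 0.177, 0.307 and 1.56 without drug and 1.91, 1.34 and 2.29 under Torin in TFE3 KO, against 0.911, 0.75 and 1.66 and then 3.45, 0.628 and 0.611 in TFEB KO. These values lie near the counting floor, where 3 reads correspond to 0.460 to 0.683 depending on the library, and the groups overlapped in both clones, with a difference of 0.70 ± 0.49 (SE, adjusted p = 0.423). Mean TFEB without drug was 0.68 in TFE3 KO and 1.11 in TFEB KO. It was 0.66 in DKO cells, which lack both factors, and 3.25 in unedited WT cells. Under Torin the means were 1.84, 1.56, 0.65 and 4.95 in the same order. MITF (chr3:69739456-69968336) was measured at 682, 677 and 688 (TFE3 KO CTRL), 843, 853 and 875 (TFE3 KO Torin), 721, 685 and 734 (TFEB KO CTRL) and 748, 705 and 753 (TFEB KO Torin). All 3 Torin libraries of TFE3 KO lay above every other library, while the TFEB KO groups overlapped, and the difference was small at 0.28 ± 0.09 (SE, adjusted p = 0.0313). Its adjusted p by limma rose to 0.0566 with median-of-ratios scaling and to 0.0731 with scaling to equal totals, and it exceeded 0.05 (up to 0.0871) in the fits that left out 1 library, except those without TFE3 KO CTRL replicate 3, TFE3 KO Torin replicate 1, TFEB KO CTRL replicate 2 or TFEB KO Torin replicate 3.

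Values are normalised read counts on a CPM-like scale, and reads per library in the table ran from 4162120 to 6526392. All 8 melanocytic markers were present, with summed values of 5929 to 9275, none of 8 leukocyte markers was listed, and the 4 listed fibroblast markers summed to at most 9.42. The 2 listed of 8 keratinocyte markers, KRT10 and DSP, summed to 51.6 to 95.8, of which KRT10 made up 48.1 to 93.1. TFEB KO CTRL replicate 1 had the lowest depth and stood apart on the third principal component. TFEB KO Torin libraries had the most genes detected, 13339 to 13414, and the lowest sums of values, 899534 to 916551. The part of these features in the results was not tested. In these bulk libraries, fewer cells that express a gene and less of its RNA per cell cannot be told apart.

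Of 12675 genes tested, 1516 (12%) were called for the Torin response in TFE3 KO and 653 (5.15%) for that in TFEB KO, called meaning an adjusted p under 0.05 and a log2 change of at least 1. Responses spread more in TFE3 KO, with an SD over all genes of 0.66 against 0.50. The Torin response difference was called for 179 genes, 88 higher in TFE3 KO (0.694% of genes tested) and 91 lower (0.718%). At any size, 424 genes passed as higher (3.35%) and 618 as lower (4.88%), and this split became 323 and 770 when libraries were scaled to equal totals. The median over all genes was 0.02 on the log2 scale. Without TFEB KO CTRL replicate 1, 174 genes were called, of which 144 were among the 179, and the count ran from 155 without TFEB KO Torin replicate 3 to 233 without TFEB KO CTRL replicate 3.

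Both clones mostly moved in 1 direction and by different amounts. Among 4035 genes that passed in both knockouts, 4011 moved the same way and 24 in opposite ways, and 2928 of the 4011 (73.0%) moved further in TFE3 KO. Across genes, which are not independent replicates, the responses had a Pearson r of 0.790 and a Spearman rho of 0.780. Among the 91 called lower, 39 fell in both knockouts and further in TFE3 KO, 35 passed in TFE3 KO alone and 16 in TFEB KO alone, and 1, RNASE1, moved in opposite ways. Among the 88 called higher, 43 passed in TFE3 KO alone, 31 in both and further in TFE3 KO, 5 in TFEB KO alone, 7 in opposite ways, and 2, the chaperones HSPA5 and HSPA1B, fell in both and further in TFEB KO.

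**Figure D1:**
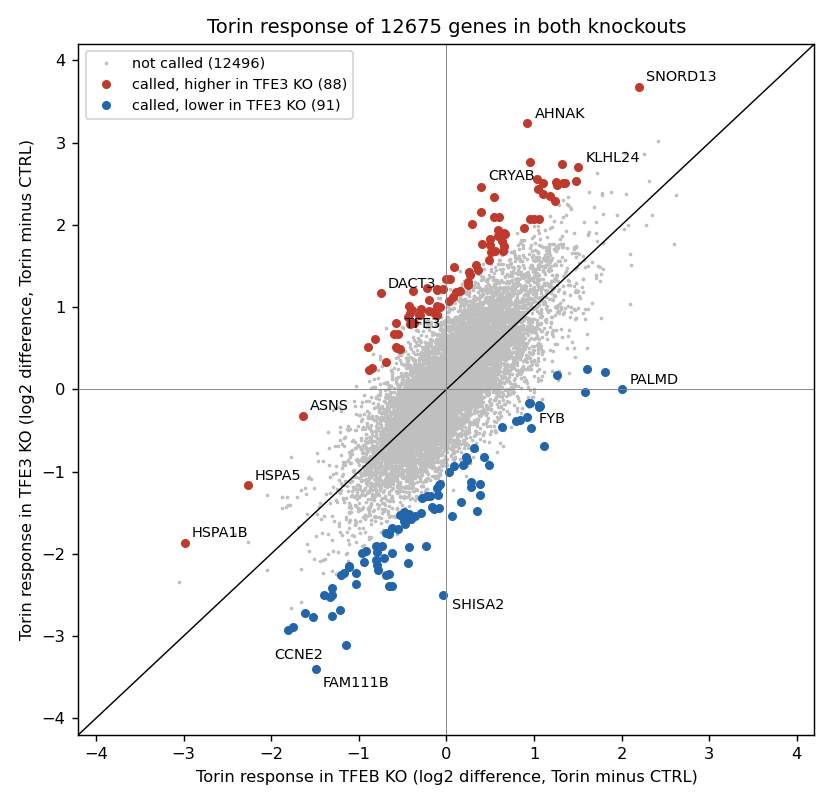
Torin response (log2 difference, Torin minus CTRL) of 12675 genes in TFEB KO (horizontal axis) and TFE3 KO (vertical axis), with the 88 genes called higher in TFE3 KO in red, the 91 called lower in blue and the line of equal response in black. Most called genes lie on the same side of 0 in both knockouts and farther out in TFE3 KO.

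The group with the most members that differed was that of E2F and DNA replication genes, which encode the origin licensing complexes, replication factors and nucleotide enzymes of S phase. Of 64 members tested, 41 passed as lower in TFE3 KO and none as higher (background 4.88% and 3.35%), and 13 were called. These genes fell in both clones, 63 members in TFE3 KO and 54 in TFEB KO, but the median response was -1.30 in TFE3 KO and -0.75 in TFEB KO, and the median difference -0.66. All 64 differences were below 0. The count of members passed was 38 without TFEB KO CTRL replicate 1 and lay between 31 and 43 over every alternative run. The gap between the clones reversed with the drug: the median member was 0.24 higher in TFE3 KO than in TFEB KO without drug and 0.38 lower under Torin.

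CLSPN (chr1:35720218-35769978) encodes claspin, which relays stalled-fork signals to the checkpoint kinase CHK1, and had the smallest p of all genes. CLSPN went from 273, 259 and 238 in TFE3 KO CTRL to 36.7, 38.96 and 36.2 under Torin, and from 165, 158 and 178 in TFEB KO CTRL to 64.5, 63.9 and 71.7 under Torin. The drug groups did not overlap in either clone, and TFE3 KO went from the higher of the clones to the lower, with a difference of -1.44 ± 0.12 (SE, adjusted p = 9.99e-10). CCNE2 (chr8:94879770-94896678), cyclin E2, which drives entry into S phase with CDK2, read 20.8, 14.9 and 19.8 without drug and 0.848, 2.004 and 1.04 under Torin in TFE3 KO, against 12.98, 13.9 and 17.2 and then 5.69, 5.65 and 6.92 in TFEB KO. The clones overlapped without drug and not under Torin, and the difference was -1.96 ± 0.31 (SE, adjusted p = 3.48e-05). GINS1 (chr20:25391008-25452700) and GINS4 encode subunits of the GINS complex of the replicative helicase. GINS1 was measured at 66.2, 69.01 and 67.5 (TFE3 KO CTRL), 12.9, 10.9 and 17.5 (TFE3 KO Torin), 74, 86.96 and 78.4 (TFEB KO CTRL) and 51.04, 52.3 and 46.8 (TFEB KO Torin). Torin lowered it in both clones without overlap, far more in TFE3 KO, with a difference of -1.58 ± 0.17 (SE, adjusted p = 1.33e-07), and GINS4 differed by -1.17 ± 0.23 (SE, adjusted p = 5.87e-04).

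FAM111B (chr11:59107185-59127412), a protease of the FAM111 family expressed in cycling cells, went from 33.6, 41.7 and 43.5 in TFE3 KO CTRL to 4.03, 3.56 and 1.46 under Torin, and from 28.9, 34.9 and 32.99 in TFEB KO CTRL to 8.10, 12.3 and 12.6 under Torin. Its fall in TFE3 KO, -3.40, was the lowest of the list, and the difference was -1.91 ± 0.29 (SE, adjusted p = 2.50e-05). RRM2 (chr2:10120698-10211725), the small subunit of ribonucleotide reductase, which makes deoxynucleotides, read 286, 287 and 305 without drug and 52.2, 62.1 and 49.1 under Torin in TFE3 KO, against 195, 200.4 and 218 and then 77.4, 84.7 and 84.1 in TFEB KO. It was higher in TFE3 KO in all 3 CTRL libraries and lower in all 3 Torin libraries, with a difference of -1.11 ± 0.12 (SE, adjusted p = 1.48e-07). MCM10 (chr10:13161558-13211110), which helps activate the replicative helicase, was measured at 90.2, 89.4 and 98.1 (TFE3 KO CTRL), 15.1, 14.9 and 9.15 (TFE3 KO Torin), 91.1, 90.9 and 79.6 (TFEB KO CTRL) and 27.8, 29.1 and 32.6 (TFEB KO Torin). The clones overlapped without drug and were apart under Torin, with a difference of -1.25 ± 0.19 (SE, adjusted p = 1.82e-05). The licensing genes ORC6 and MCM4 differed by -1.17 ± 0.17 (SE) and -1.05 ± 0.14 (SE), the chromatin factors UHRF1 and ATAD2 by -1.07 ± 0.30 (SE) and -1.03 ± 0.13 (SE). The UHRF1 result did not pass in 3 of the fits that left out a library, those without TFE3 KO CTRL replicate 2, TFE3 KO CTRL replicate 3 and TFEB KO Torin replicate 3 (adjusted p by limma 0.0528 to 0.0690).

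The genes for the activating E2F factors themselves were among the called members. E2F1 (chr20:33675477-33686385) went from 38.7, 29.9 and 33.4 in TFE3 KO CTRL to 3.60, 7.35 and 4.99 under Torin, and from 45.5, 39.7 and 37.1 in TFEB KO CTRL to 13.97, 20.4 and 13.8 under Torin. Its 3 Torin libraries in TFE3 KO were the lowest of the 12, and the difference was -1.20 ± 0.25 (SE, adjusted p = 0.0016). E2F2 (chr1:23506438-23531233) read 40.1, 38.3 and 38.4 without drug and 4.45, 5.34 and 3.54 under Torin in TFE3 KO, against 47.6, 50.8 and 49.7 and then 15.7, 16.6 and 10.4 in TFEB KO. The same order held, with a difference of -1.14 ± 0.23 (SE, adjusted p = 8.45e-04). ESCO2 (chr8:27771949-27812640), an acetyltransferase that establishes sister chromatid cohesion and is outside the list, was measured at 25.3, 23.5 and 22.3 (TFE3 KO CTRL), 2.76, 3.56 and 2.29 (TFE3 KO Torin), 32.1, 34.7 and 26.7 (TFEB KO CTRL) and 15, 13.2 and 10.6 (TFEB KO Torin). Torin lowered it in both clones without overlap, with a difference of -1.47 ± 0.25 (SE, adjusted p = 9.29e-05).

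**Figure D2:**
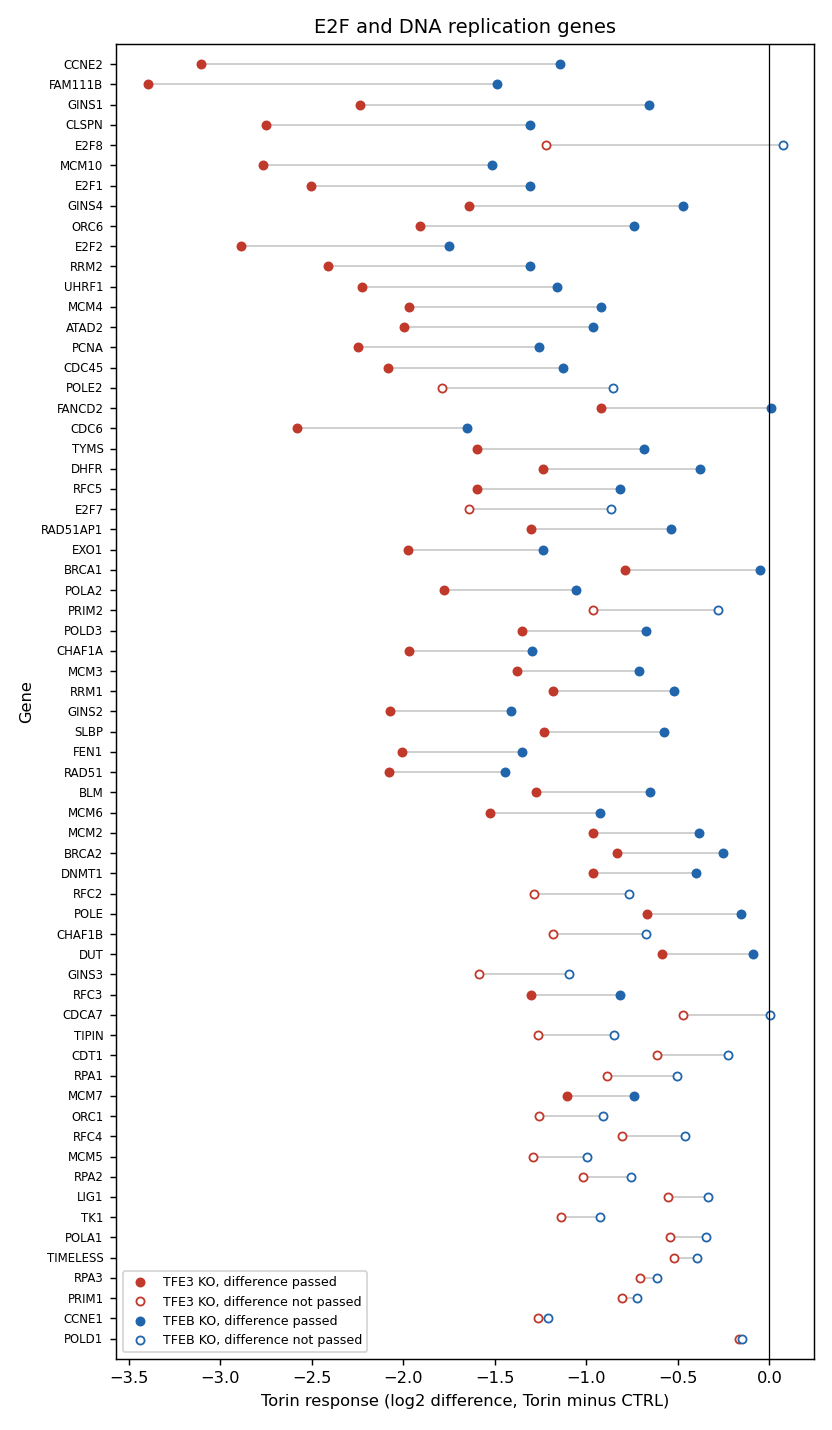
Torin response (log2 difference, horizontal axis) of the 64 E2F and DNA replication genes in TFE3 KO (red) and TFEB KO (blue), ordered by the difference from CCNE2 (-1.96) at the top, with filled points where the difference passed. TFE3 KO lies to the left in all 64 and 41 are filled.

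The promoters of 4 cell cycle genes named here are shown because they hold an E2F-type motif in the 120 bases before the RefSeq transcript start (GRCh38.p14), with TTCCCGC or TTTGGCG, read on either strand, in capitals. One of these motifs also stood in that window in APC2, ASNS and SERPINH1, named below, whose differences were positive. The E2F1 window is chr20:33686386-33686505, minus strand, the E2F2 window chr1:23531234-23531353, minus strand, the UHRF1 window chr19:4909381-4909500, plus strand and the CDCA5 window chr11:65084041-65084160, minus strand.
E2F1: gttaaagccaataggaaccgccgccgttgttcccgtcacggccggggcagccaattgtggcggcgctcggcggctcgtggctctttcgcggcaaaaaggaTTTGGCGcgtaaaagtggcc
E2F2: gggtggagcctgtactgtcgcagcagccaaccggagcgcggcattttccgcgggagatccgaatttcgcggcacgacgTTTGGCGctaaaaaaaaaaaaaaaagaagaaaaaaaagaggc
UHRF1: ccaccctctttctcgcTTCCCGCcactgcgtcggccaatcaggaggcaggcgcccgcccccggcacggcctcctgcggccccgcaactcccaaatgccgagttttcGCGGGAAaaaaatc
CDCA5: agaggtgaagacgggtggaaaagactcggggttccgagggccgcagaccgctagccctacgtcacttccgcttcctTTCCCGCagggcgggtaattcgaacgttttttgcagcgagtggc

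Motifs were counted in 300-base RefSeq promoters, from 250 bases before the start to the bases just after it, which matched 10127 of the 12675 genes tested. TTCCCGC stood in 22 of 53 list promoters (41.5%), 8 of 67 promoters of genes called lower (11.9%), 5 of 73 of genes called higher (6.85%) and 10.5% of all genes tested. TTTGGCG stood in 13 of the 53 (24.5%), 7 of the 67 (10.4%), 2 of the 73 (2.74%) and 3.07% of all. The E-box CACGTG stood in 4 of 67 promoters of genes called lower (5.97%), 5 of 73 of genes called higher (6.85%) and 10.5% of all, and in 14 of 49 lysosome and autophagy promoters (28.6%). A match is a description of the letters in the window and carries no test.

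G2/M and mitosis genes, which build and check the spindle, differed in the same direction. Of 65 tested, 26 passed as lower and none as higher, where 4.88% and 3.35% of all genes did so, none was called, and the median response was -0.66 in TFE3 KO and -0.11 in TFEB KO. MAD2L1 (chr4:120055623-120066858), the spindle checkpoint protein MAD2, went from 60.4, 59.7 and 60.7 in TFE3 KO CTRL to 25.2, 23.2 and 21.2 under Torin, and from 35.7, 46.7 and 53.05 in TFEB KO CTRL to 30.9, 33.5 and 40.1 under Torin. The drug groups were apart in TFE3 KO and overlapped in TFEB KO, with a difference of -0.99 ± 0.18 (SE, adjusted p = 3.16e-04). BIRC5 (chr17:78214186-78225636), survivin, a subunit of the chromosomal passenger complex, read 211, 206 and 216 without drug and 109.6, 97.1 and 112 under Torin in TFE3 KO, against 266, 263 and 256 and then 227, 257 and 247 in TFEB KO. Torin brought all 3 TFE3 KO libraries below every other library, with a difference of -0.88 ± 0.11 (SE, adjusted p = 8.15e-07). CDCA5 (chr11:65066300-65084164), sororin, which holds sister chromatids together, differed by -0.93 ± 0.18 (SE, adjusted p = 6.36e-04). Among 12 histone genes tested, 1 passed, the variant H2AFZ, at -0.64 ± 0.09 (SE, adjusted p = 8.04e-06).

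G1 regulators moved in separate ways. CCND1 (chr11:69641156-69654474), cyclin D1, was measured at 360.1, 375 and 384 (TFE3 KO CTRL), 213, 252 and 267 (TFE3 KO Torin), 374, 333 and 367 (TFEB KO CTRL) and 366, 347 and 331 (TFEB KO Torin). Torin lowered it in TFE3 KO, and the TFEB KO groups overlapped, with a difference of -0.58 ± 0.11 (SE, adjusted p = 4.11e-04). CDK6 (chr7:92604921-92836573), its kinase partner, went from 59.9, 65.2 and 63.8 in TFE3 KO CTRL to 60.2, 65.2 and 61.6 under Torin, and from 73.1, 73.5 and 80.2 in TFEB KO CTRL to 109.7, 107 and 121 under Torin. It rose in TFEB KO while the TFE3 KO groups overlapped, a difference of -0.58 ± 0.13 (SE, adjusted p = 0.00268). MXD4 (chr4:2247432-2262109), which competes with MYC for MAX, read 10.4, 15.8 and 14.7 without drug and 67.2, 71.9 and 79.5 under Torin in TFE3 KO, against 17.1, 18.2 and 18.7 and then 40.2, 43.2 and 42.6 in TFEB KO. It rose in both and further in TFE3 KO, by 1.17 ± 0.19 (SE, adjusted p = 5.15e-05). In all, 1 of 23 members of the list of CDK inhibitors and G1 cyclins passed as higher and 3 as lower. Over all genes the shares were 3.35% and 4.88%. The median difference of the list was -0.13.

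Genes of the FOXO factors and of insulin signalling differed the other way. Of 30 tested, 9 passed as higher in TFE3 KO and none as lower (background 3.35% and 4.88%), and the median response was 0.82 in TFE3 KO and 0.31 in TFEB KO. The 9 included DEPTOR, KLHL24, PIK3R3, FOXO4, IRS1, FOXO3, TXNIP and IRS2. Without TFE3 KO CTRL replicate 3 the count was 5. KLHL24 (chr3:183635610-183684519), a substrate adaptor of a ubiquitin ligase and a known FOXO target, went from 9.01, 12.7 and 10.4 in TFE3 KO CTRL to 74.4, 75.03 and 74.1 under Torin, and from 38.7, 38.2 and 40.1 in TFEB KO CTRL to 105, 112 and 122 under Torin. Torin raised it in both clones without overlap, TFE3 KO staying below TFEB KO before and after, and the difference was 1.19 ± 0.16 (SE, adjusted p = 4.15e-06). PIK3R3 (chr1:46040140-46133036), a regulatory subunit of PI3 kinase, read 18.5, 14.9 and 21.1 without drug and 32.9, 45.9 and 33.3 under Torin in TFE3 KO, against 27.3, 26.1 and 27.7 and then 26.6, 24.03 and 26.1 in TFEB KO. It rose in TFE3 KO, and its groups overlapped in TFEB KO, with a difference of 1.08 ± 0.20 (SE, adjusted p = 3.86e-04). IRS1 and IRS2, the adaptors that carry insulin receptor signals, differed by 0.87 and 0.53.

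DEPTOR (chr8:119873717-120050918), an inhibitor bound to both mTOR complexes, was measured at 0, 0.307 and 0 (TFE3 KO CTRL), 4.88, 8.02 and 6.45 (TFE3 KO Torin), 2.50, 2.62 and 0.497 (TFEB KO CTRL) and 6.90, 6.13 and 4.28 (TFEB KO Torin). TFE3 KO CTRL was at or under the floor of 3 reads in every library, so the fitted difference of 1.42 ± 0.42 (SE, adjusted p = 0.0294) depends on the added 1 and is not a fold, and it lost its call without TFE3 KO CTRL replicates 1 or 3, TFE3 KO Torin replicates 2 or 3, TFEB KO CTRL replicates 1 or 2, or TFEB KO Torin replicate 3 (adjusted p by limma 0.0542 to 0.101). The muscle ubiquitin ligases FBXO32 and TRIM63, well known FOXO targets outside the list, were looked up after the values had been seen. FBXO32 (chr8:123497889-123541206) went from 21.5, 24.8 and 21.5 in TFE3 KO CTRL to 77.8, 79.3 and 87.6 under Torin, and from 86.98, 87.7 and 87.03 in TFEB KO CTRL to 138, 128 and 143 under Torin. It rose without overlap in both clones, further in TFE3 KO, by 1.17 ± 0.13 (SE, adjusted p = 2.35e-07). TRIM63 (chr1:26051301-26068436) read 49.4, 51.1 and 55.8 without drug and 127, 125 and 129 under Torin in TFE3 KO, against 109, 104 and 98.3 and then 124, 125 and 119.7 in TFEB KO. TFE3 KO began well below TFEB KO and reached its level under Torin, with a difference of 1.03 ± 0.12 (SE, adjusted p = 3.33e-07). The FOXO-type motif GTAAACA stood in 4 of 26 list promoters (15.4%) and 2.24% of all.

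**Figure D3:**
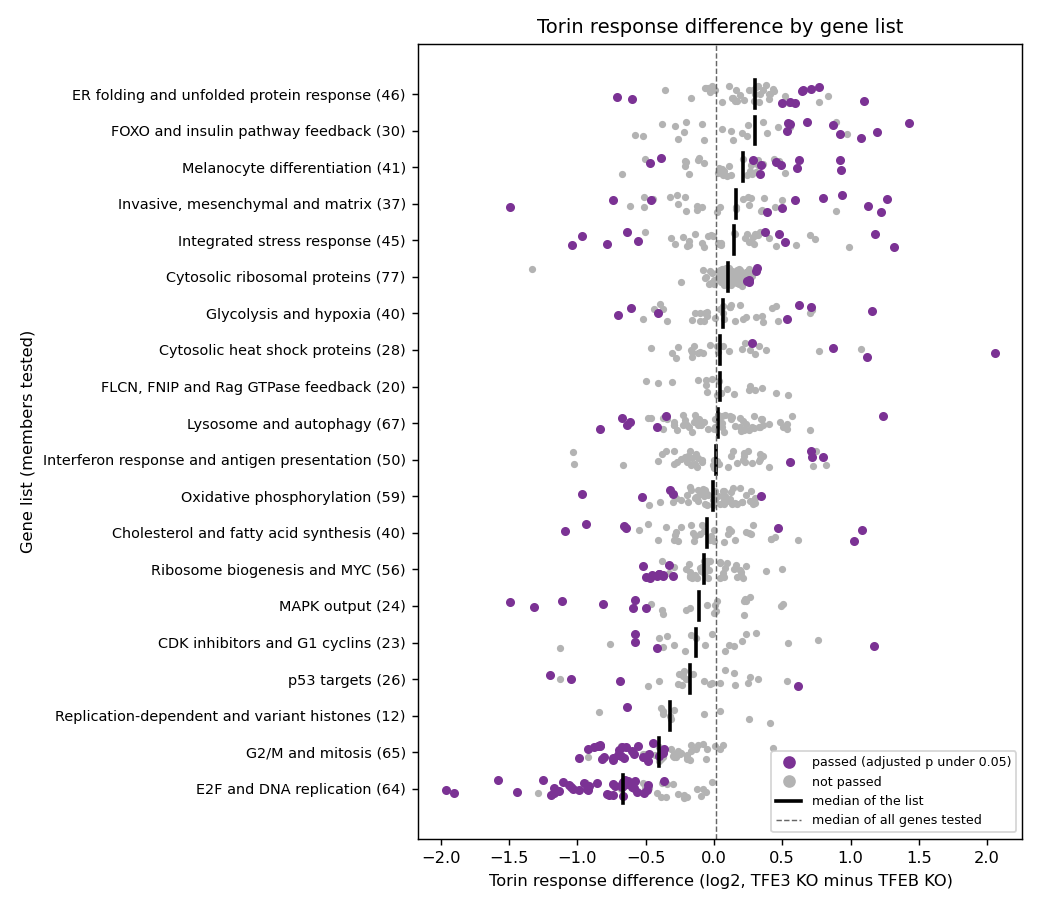
Torin response difference (log2, TFE3 KO minus TFEB KO, horizontal axis) of each member of 20 gene lists, with members that passed in purple, others in grey, the median of a list as a black bar and the median of all genes dashed. The E2F and G2/M lists lie to the left, with medians of -0.66 and -0.40, and the FOXO and endoplasmic reticulum lists to the right, both at 0.30.

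Lysosome and autophagy genes, for which TFE3 and TFEB are best known, passed at 10.4%, near the 8.22% of all genes tested. Of 67 lysosome and autophagy genes tested, TFE3 itself passed as higher and 6 passed as lower, among them ATP6V1C1, CTSL, CTSB, ATP6V0E1 and SQSTM1, with median responses of 0.03 in TFE3 KO and 0.02 in TFEB KO. The background over all genes was 3.35% and 4.88%. As higher, 4 passed without TFEB KO CTRL replicate 3, and 2 without TFE3 KO CTRL replicate 1, TFE3 KO Torin replicates 1 or 3, or TFEB KO Torin replicate 2, and 3 passed as lower without TFE3 KO CTRL replicate 3 or without TFE3 KO Torin replicate 2. ATP6V1C1 (chr8:103021063-103073051), a subunit of the proton pump that acidifies lysosomes, went from 38.5, 35.4 and 40.9 in TFE3 KO CTRL to 22.9, 24.5 and 26.4 under Torin, and from 57.8, 51.7 and 58.2 in TFEB KO CTRL to 57.8, 57.3 and 59.7 under Torin. It fell in TFE3 KO, which was already lower without drug, with a difference of -0.68 ± 0.15 (SE, adjusted p = 0.00374).

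The loop by which TFE3 and TFEB feed back on mTORC1 is made of folliculin, the FNIP proteins and the Rag GTPases. Of 20 genes of this list, none passed in either direction by limma, edgeR or DESeq2. Over all genes 3.35% passed as higher and 4.88% as lower, shares at which a list of 20 may hold none. The median difference of the 20 genes was 0.04. At an unadjusted p under 0.05, 2 were higher and 2 lower, and 1 passed as lower without TFEB KO CTRL replicate 3 and 1 as higher without TFEB KO Torin replicate 2. RRAGC (chr1:38838198-38859772), the GTPase that brings the factors to the lysosome, read 122, 132 and 138 without drug and 111, 106 and 120.5 under Torin in TFE3 KO, against 234, 222 and 204 and then 189, 188 and 171 in TFEB KO. It was lower in TFE3 KO in all libraries and fell in both, with log2 responses of -0.22 and -0.27, with a difference of 0.05 ± 0.12 (SE, adjusted p = 0.854). LAMTOR1 (chr11:72085895-72103297), the anchor of the Rag GTPases, differed by -0.06 ± 0.11 (SE, adjusted p = 0.814).

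The RRAGC promoter is shown for the E-box, in capitals, that it holds in the 120 bases before its start, chr1:38859773-38859892, minus strand.
RRAGC: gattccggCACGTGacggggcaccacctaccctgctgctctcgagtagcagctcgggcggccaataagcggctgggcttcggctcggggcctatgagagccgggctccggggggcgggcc

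Most genes of endoplasmic reticulum folding and the unfolded protein response fell under Torin in both clones. Of 46 tested, 31 fell in TFE3 KO and 37 in TFEB KO, with medians of -0.64 and -0.85, 8 passed as higher for the difference (3.35% of all genes) and 2 as lower (4.88%), and the median difference was 0.30. HSPA5 (chr9:125234853-125241382), the chaperone BiP, went from 709, 699 and 655 in TFE3 KO CTRL to 312, 318 and 289 under Torin, and from 2337, 2156 and 1809 in TFEB KO CTRL to 460.2, 469.7 and 377 under Torin. TFEB KO held the far higher level without drug and fell further, and the groups did not overlap within or between clones, with responses of -1.16 and -2.27 and a difference of 1.10 ± 0.11 (SE, adjusted p = 5.75e-08). Mean HSPA5 without drug was 1741 in WT cells and 747 in DKO cells, with responses of -2.24 and -1.07. SYVN1 (chr11:65121780-65134532), a ubiquitin ligase that clears misfolded proteins, read 20.5, 20.6 and 16.2 without drug and 25.4, 29.4 and 23.5 under Torin in TFE3 KO, against 32.8, 33.4 and 34.8 and then 28.5, 23.2 and 27.9 in TFEB KO. The clones were apart in CTRL and not under Torin, with a difference of 0.77 ± 0.19 (SE, adjusted p = 0.00777). ERO1A (chr14:52639915-52695900), an oxidase that forms disulphide bonds, went the other way at -0.71 ± 0.15 (SE, adjusted p = 0.0016).

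The HSPA5 promoter is shown for the endoplasmic reticulum stress element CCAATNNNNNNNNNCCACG, which is read by ATF6, with its fixed letters in capitals, chr9:125241344-125241463, minus strand. The element stood in 8 of 41 promoters of the list (19.5%) and 0.138% of all genes tested.
HSPA5: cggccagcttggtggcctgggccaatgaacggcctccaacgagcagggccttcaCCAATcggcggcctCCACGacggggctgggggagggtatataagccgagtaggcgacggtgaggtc

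Cytosolic heat shock genes included 4 of 28 that passed as higher and none that passed as lower, with 3.35% and 4.88% over all genes. As lower, 2 passed with median-of-ratios or equal-total scaling, all groups in the fit, DESeq2 or without TFEB KO CTRL replicate 3, and 1 with edgeR or without TFE3 KO Torin replicate 1. HSPA1B (chr6:31827738-31830254), an inducible HSP70 whose reads can be split with its near-identical copy HSPA1A, was measured at 29.5, 28.2 and 23.9 (TFE3 KO CTRL), 6.78, 6.90 and 6.45 (TFE3 KO Torin), 90.6, 81.9 and 90.02 (TFEB KO CTRL) and 11.6, 9.89 and 9.16 (TFEB KO Torin). It fell in both and further in TFEB KO, from a higher level, with a difference of 1.12 ± 0.20 (SE, adjusted p = 2.18e-04). Mean HSPA1B without drug was 64.9 in WT cells and 36.6 in DKO cells, with responses of -2.52 and -1.86. CRYAB (chr11:111908564-111923722), the small chaperone alpha-B crystallin, went from 3.53, 3.99 and 2.96 in TFE3 KO CTRL to 23.5, 23.4 and 23.7 under Torin, and from 49.9, 52.1 and 46.3 in TFEB KO CTRL to 60.7, 66.6 and 69.02 under Torin. It rose 6.74-fold in TFE3 KO and 1.32-fold in TFEB KO and was still lower in TFE3 KO in every library, with a difference of 2.06 ± 0.19 (SE, adjusted p = 2.68e-09). SERPINH1 (chr11:75562056-75572783), the collagen chaperone HSP47, is counted in this list although it works in the endoplasmic reticulum and not the cytosol. It fell in TFEB KO, with log2 responses of -0.94 there and -0.07 in TFE3 KO and a difference of 0.87 ± 0.19 (SE, adjusted p = 0.00275).

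The integrated stress response, which ATF4 runs when amino acids are short, was divided, with 5 of 45 genes passed in each direction, against 3.35% of all genes as higher and 4.88% as lower. ASNS (chr7:97851677-97872542), asparagine synthetase, read 17.5, 25.2 and 16.5 without drug and 16.3, 17.4 and 12.7 under Torin in TFE3 KO, against 64.9, 61.8 and 59.7 and then 17.9, 21.2 and 18.9 in TFEB KO. TFEB KO CTRL stood above all other libraries of the 12 and fell to their level under Torin, while the TFE3 KO groups overlapped, with a difference of 1.32 ± 0.21 (SE, adjusted p = 4.64e-05). Mean ASNS without drug was 45.7 in WT cells and 20.5 in DKO cells, with responses of -1.29 and -0.39. CTH (chr1:70411218-70439851), which makes cysteine, was measured at 3.71, 3.83 and 4.52 (TFE3 KO CTRL), 8.27, 9.35 and 6.03 (TFE3 KO Torin), 5.46, 7.68 and 6.80 (TFEB KO CTRL) and 6.04, 4.71 and 4.07 (TFEB KO Torin). It rose in TFE3 KO and its groups overlapped in TFEB KO, with a difference of 1.18 ± 0.32 (SE, adjusted p = 0.0163), and it lost its call without TFE3 KO Torin replicate 2 or TFEB KO CTRL replicate 2 (adjusted p by limma 0.0510 and 0.0514). GDF15 (chr19:18374731-18389176), a secreted stress hormone, went from 238, 263 and 256 in TFE3 KO CTRL to 85.2, 93.7 and 85.7 under Torin, and from 431, 376 and 390.4 in TFEB KO CTRL to 289.5, 301 and 274 under Torin. It fell in both without overlap, further in TFE3 KO, with a difference of -1.04 ± 0.11 (SE, adjusted p = 4.41e-08). Leaving out TFEB KO CTRL replicate 2 left 3 genes passed as higher.

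MAPK output genes and p53 targets held genes lower in TFE3 KO. Of 24 MAPK genes, 7 passed as lower and none as higher, against 4.88% and 3.35% of all genes, and 4 as lower without TFEB KO Torin replicate 1. EGR1 (chr5:138465479-138469303), an immediate early transcription factor, read 19.8, 29.4 and 20.1 without drug and 7.42, 7.57 and 7.91 under Torin in TFE3 KO, against 15.7, 11.8 and 11.9 and then 12.1, 10.99 and 12.2 in TFEB KO. It fell in TFE3 KO and its groups overlapped in TFEB KO, with a difference of -1.32 ± 0.25 (SE, adjusted p = 4.34e-04). FOSL1 (chr11:65892049-65900573), the AP-1 subunit FRA1, was measured at 9.01, 7.36 and 8.73 (TFE3 KO CTRL), 2.54, 1.34 and 0.832 (TFE3 KO Torin), 7.74, 5.44 and 5.14 (TFEB KO CTRL) and 4.31, 4.55 and 3.87 (TFEB KO Torin). Torin lowered it in TFE3 KO, it did not pass in TFEB KO, and the difference was -1.49 ± 0.35 (SE, adjusted p = 0.00515), while SPRY4, a feedback inhibitor of the pathway, differed by -1.11 ± 0.31 (SE, adjusted p = 0.0197). SPRY4 lost its call without TFE3 KO CTRL replicate 2, TFE3 KO Torin replicate 3 or TFEB KO Torin replicate 1 (adjusted p by limma 0.0673 to 0.0788). Of 26 p53 targets, PMAIP1, AEN and TIGAR passed as lower and BBC3 as higher, against 4.88% and 3.35% of all genes, and 22 did not pass. Leaving out 1 library gave 2 to 4 passed as lower. TIGAR did not pass without TFE3 KO CTRL replicates 1 or 2, TFE3 KO Torin replicate 3, TFEB KO CTRL replicate 1 or TFEB KO Torin replicate 1 (adjusted p by limma 0.0553 to 0.0944). PMAIP1 (chr18:59899996-59904305), the pro-apoptotic protein NOXA, went from 12.9, 15.2 and 14.03 in TFE3 KO CTRL to 1.70, 2.23 and 1.04 under Torin, and from 15.9, 14.6 and 13.8 in TFEB KO CTRL to 3.97, 5.81 and 6.31 under Torin. It fell in both, more in TFE3 KO, by -1.20 ± 0.31 (SE, adjusted p = 0.00998), and the nuclease gene AEN differed by -1.04 ± 0.14 (SE, adjusted p = 5.73e-06).

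Of 41 melanocyte differentiation genes, 26 rose in TFE3 KO and 24 in TFEB KO, with medians of 0.47 and 0.33, and 9 passed as higher in TFE3 KO and 2, MC1R and ST3GAL6, as lower (3.35% and 4.88% over all genes). Leaving out 1 library left 1 gene passed as lower, except for TFE3 KO Torin replicate 3, TFEB KO CTRL replicates 2 or 3 and TFEB KO Torin replicate 2. KIT (chr4:54657267-54740783), the receptor of stem cell factor, read 122, 134 and 102 without drug and 302, 322 and 281 under Torin in TFE3 KO, against 165, 153 and 148 and then 233, 206 and 187 in TFEB KO. TFE3 KO went from the lower to the higher clone, with a difference of 0.92 ± 0.13 (SE, adjusted p = 6.02e-06). ABCB5 (chr7:20615667-20777038), a membrane transporter of melanoma and limbal stem cells, was measured at 3.002, 3.53 and 2.96 (TFE3 KO CTRL), 17.4, 16.9 and 16.4 (TFE3 KO Torin), 13.7, 15.7 and 14.9 (TFEB KO CTRL) and 35.9, 33.6 and 34.4 (TFEB KO Torin). It rose without overlap in both clones and was lower in TFE3 KO under either condition, with a difference of 0.93 ± 0.23 (SE, adjusted p = 0.00639). CITED1 (chrX:72301638-72307187), a transcriptional co-regulator outside the list, went from 70.99, 66.4 and 77.8 in TFE3 KO CTRL to 151, 150.1 and 158 under Torin, and from 77.6, 77.4 and 78.2 in TFEB KO CTRL to 64.1, 78.7 and 61.3 under Torin. It rose in TFE3 KO and its groups overlapped in TFEB KO, with a difference of 1.28 ± 0.13 (SE, adjusted p = 4.41e-08). SOX4 (chr6:21593751-21598619), a transcription factor also outside the list, read 228, 211 and 214 without drug and 582, 589 and 618 under Torin in TFE3 KO, against 179.9, 178 and 195 and then 239, 233 and 236 in TFEB KO. Torin raised it in both, far more in TFE3 KO, by 1.09 ± 0.10 (SE, adjusted p = 2.68e-09).

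In the list of invasive, mesenchymal and matrix genes 8 of 37 passed as higher and 3 as lower (3.35% and 4.88% of all genes), the first count falling to 4 without TFE3 KO Torin replicate 2 or TFEB KO Torin replicate 3 and to 5 without TFE3 KO CTRL replicates 2 or 3, TFE3 KO Torin replicate 1, TFEB KO CTRL replicates 1 or 2, or TFEB KO Torin replicate 1. JUN (chr1:58776845-58784048), an AP-1 subunit, was measured at 19.6, 13.3 and 18.7 (TFE3 KO CTRL), 32.2, 39.9 and 31.4 (TFE3 KO Torin), 31.4, 25.5 and 25.7 (TFEB KO CTRL) and 21.9, 23.1 and 21.6 (TFEB KO Torin). It rose in TFE3 KO and crossed the TFEB KO level, with a difference of 1.27 ± 0.21 (SE, adjusted p = 5.70e-05). CYR61 (chr1:85580761-85584589), a matricellular target of YAP, went from 14.8, 18.2 and 23.4 in TFE3 KO CTRL to 102, 132 and 95.5 under Torin, and from 28.5, 35.6 and 32.5 in TFEB KO CTRL to 67.6, 91.6 and 78.4 under Torin. It rose in both and further in TFE3 KO, by 1.22 ± 0.20 (SE, adjusted p = 9.60e-05). TAGLN, an actin-binding protein, differed by 1.13 ± 0.34 (SE, adjusted p = 0.0351) and kept its call without TFE3 KO CTRL replicate 2, TFE3 KO Torin replicate 3, TFEB KO CTRL replicate 3 or TFEB KO Torin replicate 2, but in no other fit that left out a library (adjusted p by limma up to 0.11).

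Metabolic lists held a few genes in each direction. Of 40 cholesterol and fatty acid genes 3 passed as higher and 4 as lower, where the shares over all genes were 3.35% and 4.88%. LPIN1 (chr2:11677595-11827409), a phosphatidate phosphatase and regulator of lipid genes, was measured at 31.97, 38.03 and 29 (TFE3 KO CTRL), 112, 112 and 111 (TFE3 KO Torin), 69.7, 66.3 and 62 (TFEB KO CTRL) and 98.3, 101 and 115 (TFEB KO Torin). It rose in both and closed the gap to TFEB KO, with a difference of 1.08 ± 0.14 (SE, adjusted p = 3.07e-06). TM7SF2, a sterol reductase, differed by 1.02 ± 0.30 (SE, adjusted p = 0.0244) and lost its call without TFE3 KO CTRL replicate 2, TFE3 KO Torin replicates 1 or 3, TFEB KO CTRL replicate 2, or TFEB KO Torin replicates 1 or 2 (adjusted p by limma 0.05003 to 0.0731). NDRG1 (chr8:133237175-133302022), a gene raised in low oxygen, went from 2.30, 1.99 and 1.87 in TFE3 KO CTRL to 17.4, 16.03 and 15.8 under Torin, and from 11.4, 10.3 and 12.4 in TFEB KO CTRL to 25.3, 37.4 and 30.1 under Torin. It rose without overlap in both, with a difference of 1.16 ± 0.25 (SE, adjusted p = 0.00245), while SLC2A1, the glucose transporter GLUT1, fell further in TFE3 KO, with a difference of -0.70 ± 0.13 (SE, adjusted p = 3.47e-04).

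Over all genes 3.35% passed as higher and 4.88% as lower. Of 40 glycolysis and hypoxia genes 4 passed as higher and 3 as lower. Of 59 oxidative phosphorylation genes 1 passed as higher and 4 as lower, 8.47% in all beside 8.22% of all genes. The count of lower ones dropped to 1 or 2 without any library other than TFE3 KO Torin replicate 1, TFEB KO CTRL replicate 3 or TFEB KO Torin replicate 3. Of 50 interferon and antigen presentation genes 4 passed as higher, IFITM2, PARP14, STAT2 and IFITM3, and none as lower. IFITM2 no longer passed without TFE3 KO CTRL replicates 1 or 2, TFE3 KO Torin replicate 2, TFEB KO CTRL replicates 1 or 2, or TFEB KO Torin replicates 1 or 3 (adjusted p by limma 0.0509 to 0.0960). Ribosome biogenesis and MYC genes had 11 of 56 passed as lower, 7 without TFE3 KO CTRL replicate 2, TFE3 KO Torin replicate 1 or TFEB KO CTRL replicate 2, and none as higher. DDX21 (chr10:68956135-68985068), a nucleolar RNA helicase, read 1486, 1481 and 1479 without drug and 962, 1022 and 993 under Torin in TFE3 KO, against 1349.6, 1338 and 1371 and then 1329, 1276 and 1299.7 in TFEB KO. Torin lowered it in TFE3 KO, with a difference of -0.52 ± 0.08 (SE, adjusted p = 1.95e-05). Cytosolic ribosomal protein genes had 67 of 77 members that rose in TFE3 KO and 37 in TFEB KO, with small median responses of 0.30 and 0.17. For the difference 5 passed as higher, led by RPS3 at 0.32 ± 0.08 (SE, adjusted p = 0.00974), which became 2 with median-of-ratios or equal-total scaling or without TFE3 KO CTRL replicates 1 or 2, TFE3 KO Torin replicate 3, TFEB KO CTRL replicate 2 or TFEB KO Torin replicate 1, 3 without TFE3 KO Torin replicate 2, TFEB KO CTRL replicate 1 or TFEB KO Torin replicate 2, and 8 without TFEB KO CTRL replicate 3.

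**Figure D4:**
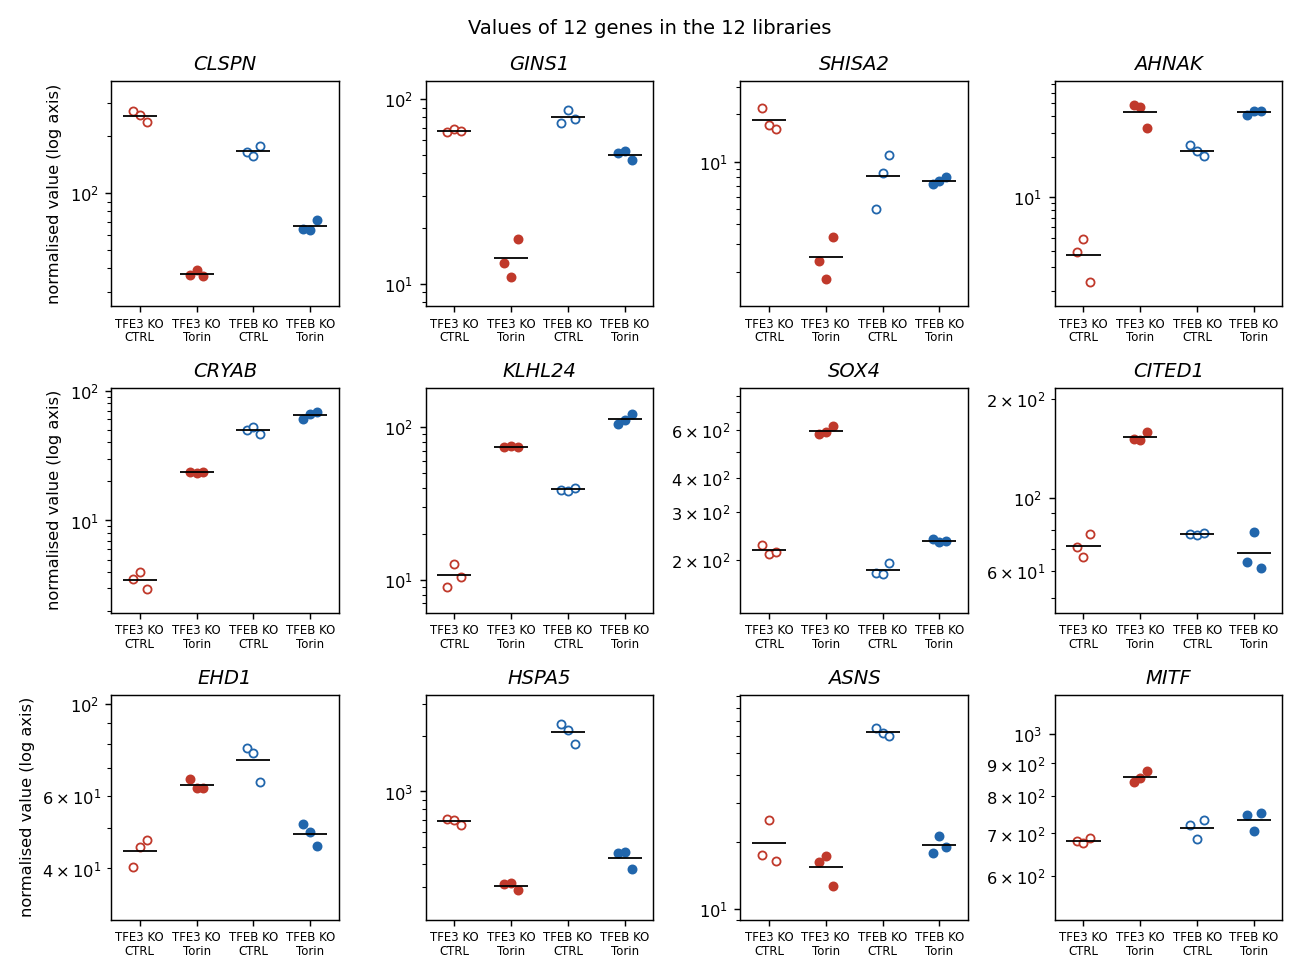
Normalised values (vertical log axis) of 12 genes in TFE3 KO (red) and TFEB KO (blue), open for CTRL and filled for Torin, with 1 point per library and a bar at the mean of 3. CLSPN starts higher in TFE3 KO and ends lower, AHNAK starts lower and reaches the TFEB KO level, and HSPA5 falls further in TFEB KO.

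Beyond the lists, the 12 strongest differences in each direction were taken from genes with a mean of at least 5. AHNAK (chr11:62433542-62556235), a giant scaffold protein of the cell membrane, was measured at 3.89, 4.91 and 2.34 (TFE3 KO CTRL), 48.5, 47.4 and 32.7 (TFE3 KO Torin), 24.4, 22.1 and 20.2 (TFEB KO CTRL) and 41.04, 44.3 and 43.6 (TFEB KO Torin). Its TFE3 KO level began below and reached the range of TFEB KO under Torin, with a difference of 2.31 ± 0.24 (SE, adjusted p = 4.78e-08). RORB (chr9:74497335-74693177), an orphan nuclear receptor, went from 1.59, 1.38 and 0.624 in TFE3 KO CTRL to 14.4, 14.5 and 12.3 under Torin, and from 11.6, 11.6 and 11.6 in TFEB KO CTRL to 25.7, 21.5 and 23.4 under Torin. It rose in both without overlap and remained lower in TFE3 KO, with a difference of 1.81 ± 0.28 (SE, adjusted p = 2.70e-05). Others higher in TFE3 KO were FBXO2 at 1.80, PRICKLE1 at 1.76, the acetyltransferase gene NAT16 at 1.53, the snoRNA gene SNORD13 at 1.49, APC2 at 1.41, PRUNE2 at 1.39 and the ephrin EFNA1 at 1.36. Because the libraries read polyadenylated RNA, the SNORD13 value need not follow the level of the mature snoRNA. FBXO2 had 1 TFE3 KO CTRL library at 0, and its adjusted p by limma was 0.193 with a pseudocount of 0.1. FAR2P1 (1.55), a pseudogene, and ANKRD36B (1.35), of a gene family with close copies, may share reads with those copies.

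SHISA2 (chr13:26044597-26052016), an endoplasmic reticulum protein that restrains FGF and WNT receptors, had the lowest difference. SHISA2 read 22.1, 17.2 and 16.2 without drug and 2.33, 1.78 and 3.33 under Torin in TFE3 KO, against 5.01, 8.43 and 10.9 and then 7.24, 7.54 and 7.94 in TFEB KO. It fell in TFE3 KO from above the TFEB KO range to below it, while the TFEB KO groups overlapped, with a difference of -2.46 ± 0.32 (SE, adjusted p = 3.14e-06). ATP1B1 (chr1:169105697-169310992), the beta subunit of the sodium pump, was measured at 23.7, 19.8 and 15.4 (TFE3 KO CTRL), 4.03, 1.56 and 3.54 (TFE3 KO Torin), 44.4, 50.4 and 42.8 (TFEB KO CTRL) and 28.8, 32.98 and 25.04 (TFEB KO Torin). It fell in both clones and was lower in TFE3 KO throughout, with a difference of -1.74 ± 0.27 (SE, adjusted p = 3.63e-05). AMIGO2 (chr12:47075707-47079959), a cell adhesion protein, went from 24.2, 21.8 and 21.7 in TFE3 KO CTRL to 5.72, 4.23 and 6.03 under Torin, and from 25.96, 22.3 and 22.7 in TFEB KO CTRL to 18.3, 19.5 and 21.99 under Torin. The clones overlapped without drug and were apart under Torin, with a difference of -1.67 ± 0.22 (SE, adjusted p = 4.10e-06). BASP1 differed by -1.67, the endocytic adaptor STON2 by -1.57, the antisense transcript RNF144A-AS1 by -1.53 and MTHFD2P1, a processed pseudogene that may share reads with MTHFD2, by -1.46. SDC3, a cell surface proteoglycan, differed by -1.08 ± 0.12 (SE, adjusted p = 1.80e-07), with overlapping TFEB KO groups.

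Of the genes called higher 33, and of those called lower 28, had responses of opposite sign in the clones. The 28 include PALMD, whose response of 0 in TFE3 KO was counted as a fall. Both responses passed in 7 of the 33 and 1 of the 28, EHD1, DACT3 and RNASE1 included. EHD1 (chr11:64851642-64888296), which recycles endosomes, read 40.4, 45.1 and 46.9 without drug and 65.7, 62.6 and 62.6 under Torin in TFE3 KO, against 78.3, 75.9 and 64.8 and then 51.2, 49 and 45.4 in TFEB KO. It rose in TFE3 KO, fell in TFEB KO and overlapped in neither clone, with a difference of 1.10 ± 0.14 (SE, adjusted p = 3.34e-06). RNASE1 (chr14:20801228-20802855), a secreted ribonuclease, was measured at 57.9, 50 and 46.3 (TFE3 KO CTRL), 27.3, 30.7 and 34.5 (TFE3 KO Torin), 56.7, 56.04 and 55.4 (TFEB KO CTRL) and 68.6, 85.1 and 59.3 (TFEB KO Torin). The clones moved apart, down in TFE3 KO and up in TFEB KO, with a difference of -1.04 ± 0.17 (SE, adjusted p = 5.57e-05). DACT3 (chr19:46647551-46661182), an inhibitor of WNT signalling with values near the floor, rose in TFE3 KO and fell in TFEB KO, with a difference of 1.92 ± 0.39 (SE, adjusted p = 0.00107). FYB (chr5:39105252-39274528), an adaptor protein whose response passed in TFEB KO alone, went from 3.18, 1.84 and 2.18 in TFE3 KO CTRL to 1.48, 1.34 and 1.46 under Torin, and from 8.20, 9.75 and 10.4 in TFEB KO CTRL to 17.9, 17.9 and 22.6 under Torin. It rose in TFEB KO and was below it in every TFE3 KO library, with a difference of -1.44 ± 0.32 (SE, adjusted p = 0.00258). PALMD (chr1:99646113-99694541), palmdelphin, had no read in any TFE3 KO library and rose in TFEB KO, from 0.683, 2.81 and 3.15 in CTRL to 9.48, 11.5 and 12.2 under Torin. The fitted difference of -2.01 depends on the added 1, and edgeR on the recovered reads did not call it (adjusted p = 0.9998).

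A difference in response can open a gap between the clones or close one. Without drug 4024 genes (31.7%) passed for TFE3 KO against TFEB KO, and under Torin 4700 (37.1%). Of the 88 genes called higher, 54 had a smaller gap under Torin and 34 a larger one, and of the 91 called lower, 76 had a larger gap and 15 a smaller one. These counts share the libraries that define the calls, so they describe the calls and test nothing. AHNAK was an example of a gap that closed, from -2.34 to -0.02, and SDC3 of a gap that opened, from -0.02 to -1.10.

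**Figure D5:**
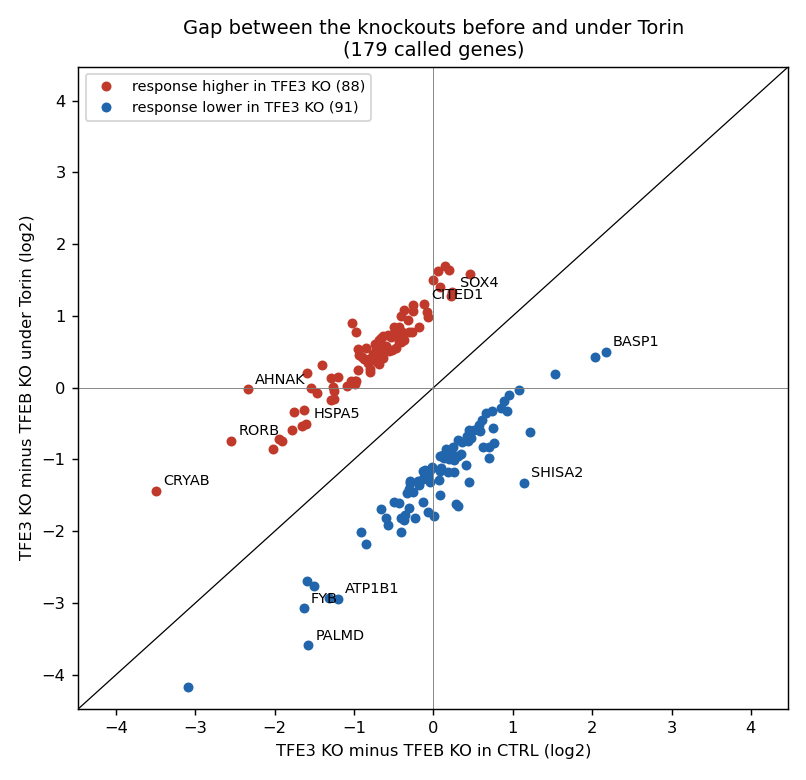
Gap between the clones (log2, TFE3 KO minus TFEB KO) without drug (horizontal axis) and under Torin (vertical axis) for the 179 called genes, 88 with a higher response in TFE3 KO in red and 91 with a lower one in blue, with the line of equal gaps in black. Red points lie mostly left of 0 without drug, such as AHNAK at -2.34, and blue points mostly below 0 under Torin.

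Libraries of other genotypes, not used for the calls, were set beside them. DKO cells lack both factors, and WT cells are unedited, with 3 libraries each but 2 for WT Torin, because 1 of its columns was identical to a column of another treatment and was left out. The labels give 12 h for the DKO and WT Torin libraries and no time for WT CTRL, so the WT response may not be matched in time. The DKO response was nearer to that of TFE3 KO than to that of TFEB KO for 78 of the 88 genes called higher (88.6%) and 64 of the 91 called lower (70.3%), beside 62.6% of all genes tested. The WT response was nearer to TFE3 KO for 42 of the 88 (47.7%) and 39 of the 91 (42.9%), beside 53.8% of all. Among the genes called higher the median response was 1.37 in TFE3 KO, 1.02 in DKO, 0.85 in WT and 0.24 in TFEB KO. Among those called lower it was -1.53, -1.07, -0.80 and -0.40. In the E2F and DNA replication list the medians were -1.30 in TFE3 KO, -1.38 in DKO, -1.13 in WT and -0.75 in TFEB KO. In the list of endoplasmic reticulum folding and unfolded protein response they were -0.64, -0.66, -1.03 and -0.85 in the same order.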

How the data were processed

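Total RNA of 501mel TFE3 KO and TFEB KO clones was profiled with QuantSeq Forward 3′ libraries. Per the study's methods and the submitters' processing notes, the authors trimmed reads with cutadapt 2.10, checked them with FastQC 0.11.9, mapped them to hg38 with STAR 2.7.8a and normalised gene counts with edgeR. The deposited signal is a CPM-like value per gene, and the counter, annotation and scaling factor are not given in the sources used here. Columns of no sample numbered 0. All values were whole multiples of 1 read (tolerance 0.01), so reads were recovered by division. The 12 libraries held 4162120 to 6526392 reads. Floors cover counting error only, and each SE comes from the limma fit to the spread between libraries within groups.

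Tested genes reached a value of 1 in 3 or more of the 12 libraries (12675 of 13523), and log2(value + 1) was fitted with limma 3.58.1 in R 4.3.3 (1 mean per group, eBayes with trend and robust, no replicate block). Differences are on that scale, which understates changes of low genes. Tests were 2-sided, with Benjamini-Hochberg adjustment over all tested genes. Called means adjusted p under 0.05 and an absolute difference of at least 1, and passed means adjusted p under 0.05. Separate cultures are not stated for replicates, so p-values may measure technical spread.

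Genes named are TFE3, TFEB and MITF, the 12 highest and 12 lowest called with a mean of at least 5, called list members, up to 3 passed members per list, and up to 3 examples per response class. Some genes that this rule selects are not reported here. Members and lists were chosen with earlier results of these data known. Coordinates are from GENCODE (hg38) and promoters from RefSeq (GRCh38.p14). Alternatives were pseudocount 0.1, no filter, a minimum value of 5, median-of-ratios scaling, equal totals (chosen after seeing the data), all groups in the fit, a replicate block, edgeR 4.0.16 and DESeq2 1.42.0 on recovered reads, and leaving out each library.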

Additional observations from a re-analysis of the deposited data

Results flagged for a closer look

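The test of the difference between the 2 Torin responses called 179 genes, 88 higher and 91 lower in TFE3 KO, and 64 of them are named here with their Torin response difference (log2, limma). No explanation was tested for any of them.

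Among the genes with a higher response in TFE3 KO, the differences from the largest down were AHNAK 2.31, CRYAB 2.06, DACT3 1.92, RORB 1.81, FBXO2 1.80, PRICKLE1 1.76, FAR2P1 1.55, NAT16 1.53, SNORD13 1.49, DEPTOR 1.42 and APC2 1.41. They were followed by PRUNE2 1.39, EFNA1 1.36, ANKRD36B 1.35, ASNS 1.32, CITED1 1.28, JUN 1.27, TFE3 1.24, CYR61 1.22, KLHL24 1.19, CTH 1.18 and MXD4 1.17. The smallest of these were FBXO32 1.17, NDRG1 1.16, TAGLN 1.13, HSPA1B 1.12, HSPA5 1.10, EHD1 1.10, SOX4 1.09, LPIN1 1.08, PIK3R3 1.08, TRIM63 1.03 and TM7SF2 1.02.

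Among the genes with a lower response in TFE3 KO, the differences of largest size were SHISA2 -2.46, PALMD -2.01, CCNE2 -1.96, FAM111B -1.91, ATP1B1 -1.74, BASP1 -1.67, AMIGO2 -1.67, GINS1 -1.58, STON2 -1.57, RNF144A-AS1 -1.53 and FOSL1 -1.49. Next in size came ESCO2 -1.47, MTHFD2P1 -1.46, CLSPN -1.44, FYB -1.44, EGR1 -1.32, MCM10 -1.25, PMAIP1 -1.20, E2F1 -1.20, GINS4 -1.17, ORC6 -1.17 and E2F2 -1.14. The remainder were SPRY4 -1.11, RRM2 -1.11, SDC3 -1.08, UHRF1 -1.07, MCM4 -1.05, AEN -1.04, GDF15 -1.04, RNASE1 -1.04 and ATAD2 -1.03. PALMD and DEPTOR rest on groups at or near 0 reads, so their values depend on the added 1.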

How the results depend on the processing

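The count of genes called for the difference, 179, was 209 with pseudocount 0.1, 187 without a filter, 164 at a minimum value of 5, 187 with median-of-ratios scaling, 186 with equal totals, 179 with all groups in the fit, 209 with edgeR and 186 with DESeq2, which gave no adjusted p for 2212 genes. Leaving out 1 library gave 155 to 233 genes called and 738 to 1182 passed at any size. Over the same fits the called counts were 1500 to 1597 for Torin in TFE3 KO, 653 to 742 for Torin in TFEB KO, 527 to 601 between clones without drug and 644 to 704 under Torin. With edgeR, 982 genes were called for Torin in TFEB KO (653 with limma) and 795 between clones without drug (528), and at a minimum value of 5, which tested 10413 genes, 428 between clones under Torin (644). For the first pair the cause was not tested.

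Replicate numbers did not pair the libraries: 1 of 18 same-numbered pairs had a correlation of deviations over 0.1 (range -0.105 to 0.128), and the replicate block gave 181 genes called and 1057 passed. Of 93 named genes that passed, 78 passed under every alternative run, and none reversed. PARP14, which passed and was not called, no longer passed with all groups in the fit (adjusted p by limma 0.0599). Depth limits genes near 3 reads, such as TFEB, DACT3, DEPTOR and PALMD.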
